A study of Caenorhabditis elegans with 2 samples.

Results

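The muscle structural and regulatory genes described here are 36 named protein-coding genes of Caenorhabditis elegans, of 19985 in the Ensembl annotation of the WBcel235 assembly, which is the ce11 build. They were named by symbol, with earlier results of these data known, and all 36 symbols matched 1 gene. Occupancy of LIM-6, a LIM homeodomain transcription factor, had been profiled by chromatin immunoprecipitation and sequencing (ChIP-seq) in whole hermaphrodite late embryos, 5 hours after synchronization by egg bleaching. Both libraries came from strain OP388, which has the genotype unc-119(ed3) III; wgIs388 and stably expresses LIM-6 with a C-terminal GFP-FLAG tag, and the antibody was raised against GFP. The libraries are biological replicates 1 and 2 of 1 group, so the design has no contrast between conditions, and a whole-embryo DNA assay gives no means of telling muscle cells from others. The question taken up was how the muscle genes, of which most had a region in the relaxed lists and none a reproducible peak, were placed within those lists.

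Body wall muscle of C. elegans is built of sarcomeres in which thick filaments of myosin and paramyosin slide past thin filaments of actin, tropomyosin and troponin. The filaments are anchored to the cell membrane through dense bodies and M-lines, which connect by integrins to perlecan in the basement membrane. HLH-1, the worm ortholog of MyoD, drives the fate of body wall muscle, and HLH-8, the Twist ortholog, acts in the mesodermal lineage of the larva. LIM-6 is known for its part in the identity of a small set of neurons and other cells, not of body wall muscle.

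Each deposited list holds genomic regions with a signal value and a q-value given by the authors. The relaxed lists hold peaks and background together, as input to a test of reproducibility (the irreproducible discovery rate, IDR). They held 25887 regions for both libraries pooled, 21953 for replicate 1 and 27731 for replicate 2, and the list that passed the authors' threshold held 570 reproducible peaks. All signal values are peak scores on the authors' linear scale and describe a region within its own list, since read depth is unknown and pooled and single-library signals were not compared in scale. A promoter window ran from 1000 bp upstream to 500 bp downstream of any annotated transcript 5′ end, and a region was placed by its summit, the position of its maximum in the file.

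Shown first are the promoter regions of unc-60, act-1, pat-4 and mlc-2, which are among the 5 of highest pooled signal and so came nearest to the reproducible list, and that of the muscle regulator hlh-1. Each sequence spans 100 bp on either side of the summit, shortened for hlh-1 to leave out annotated transcript, and comes from the RefSeq WBcel235 assembly. It is written 5′ to 3′ on the strand of the gene, and capitals mark matches to GAGAGA on either strand (TCTCTC on the other). The stretches are chrV:1474549-1474749 (+) for unc-60, chrV:11080219-11080419 (+) for act-1, chrIII:95034-95234 (−) for pat-4, chrX:17456912-17457112 (−) for mlc-2 and chrII:4518443-4518573 (+) for hlh-1.
unc-60: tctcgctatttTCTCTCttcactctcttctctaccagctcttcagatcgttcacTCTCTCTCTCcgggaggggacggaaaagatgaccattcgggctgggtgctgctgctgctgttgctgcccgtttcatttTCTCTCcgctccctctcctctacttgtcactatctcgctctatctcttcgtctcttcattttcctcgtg
act-1: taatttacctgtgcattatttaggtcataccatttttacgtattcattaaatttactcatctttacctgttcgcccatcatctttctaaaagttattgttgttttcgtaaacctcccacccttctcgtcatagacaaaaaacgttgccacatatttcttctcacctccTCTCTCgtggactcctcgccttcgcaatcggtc
pat-4: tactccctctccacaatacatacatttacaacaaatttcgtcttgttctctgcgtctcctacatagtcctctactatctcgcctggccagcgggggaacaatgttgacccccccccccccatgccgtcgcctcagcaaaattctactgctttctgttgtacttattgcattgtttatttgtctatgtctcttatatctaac
mlc-2: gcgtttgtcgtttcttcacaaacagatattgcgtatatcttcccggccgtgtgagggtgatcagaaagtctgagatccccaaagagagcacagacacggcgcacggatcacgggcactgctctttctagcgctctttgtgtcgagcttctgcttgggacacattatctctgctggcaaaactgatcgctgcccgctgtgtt
hlh-1: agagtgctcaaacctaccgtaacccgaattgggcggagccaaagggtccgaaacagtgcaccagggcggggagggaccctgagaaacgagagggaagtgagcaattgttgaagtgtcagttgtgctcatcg

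The unc-60 stretch had 5 GAGAGA matches, counting overlaps, while act-1 had 1 match and pat-4, mlc-2 and hlh-1 had none. Pyrimidines on the printed strand made up 71.6% for unc-60, 66.7% for act-1, 66.2% for pat-4, 53.7% for mlc-2 and 37.4% for hlh-1. GC content was 51.2% for unc-60, 39.3% for act-1, 45.3% for pat-4, 52.2% for mlc-2 and 55.7% for the shorter hlh-1 stretch.

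A pooled relaxed region had its summit in the promoter window of 29 of the 36 muscle genes, 80.6%, compared with 41.0% of all protein-coding genes. In replicate 1 the count was 26 (36.8% of all genes) and in replicate 2 it was 27 (41.9% of all genes). Both libraries had a region in the window of 21 muscle genes, against 25.0% of all genes, and all 3 lists had one in the window of 20, against 23.7%. The share was thus higher than that of the annotation at large in each list. Because the list was drawn up in that knowledge, no test of it was made.

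More 5′ ends give a gene a wider window, so the share was also read by the number of ends. Among the 21 muscle genes with 1 annotated 5′ end, 85.7% had a pooled promoter region, against 35.1% of the 14510 such genes in the annotation. Among the 15 with several ends the share was 73.3%, against 56.4% of 5475 genes. Per 10 kb of window, the muscle genes had 5.82 summits and all genes 3.17. The higher share was therefore present at genes with a single 5′ end, where the windows are of equal width.

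The reproducible list held no peak at the promoter of any of the 36, and 2.61% of all genes had one there. Of the 8189 genes with a pooled relaxed promoter region, 6.37% had a reproducible peak, which applied to 29 genes would be 1.85 genes. Inside the gene body the number was 0 of 36, and 0.791% for all genes. Shares this small come to few genes or none in a list of 36, and whether 0 is lower was not tested. The reproducible list was exactly the 570 pooled regions of highest signal and ended at a signal of 80.03, and the highest muscle gene signal was 76.1. The values of the individual genes relative to that limit are given by the role of their products, beginning with the thin filament.

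**Figure D1:**
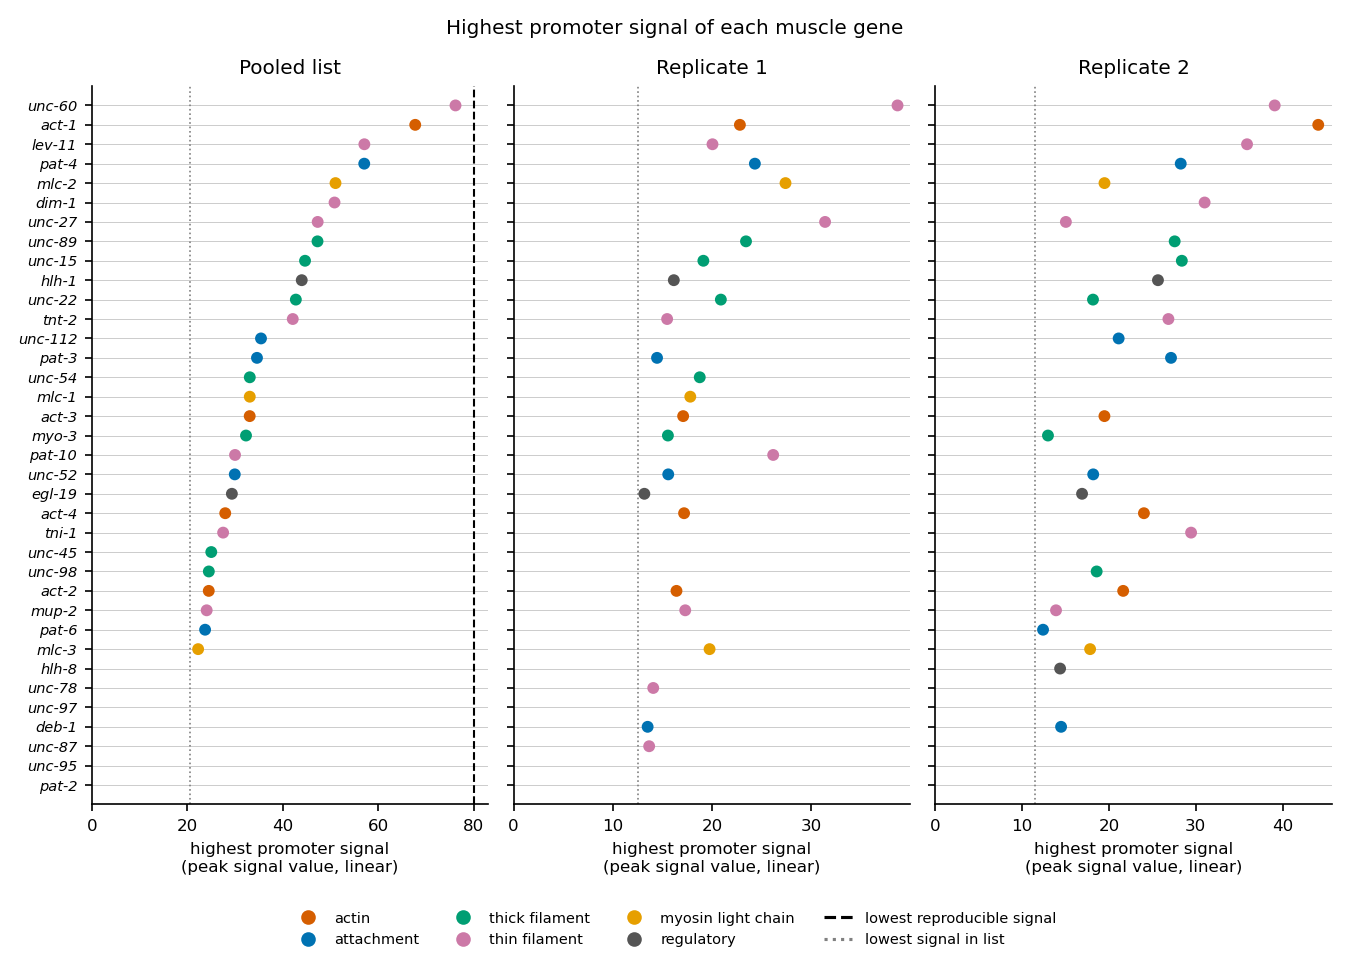
Highest signal of any region in the promoter window of each of the 36 muscle genes, in the pooled list and in each library, on linear axes of the authors' signal value; colours give the role of the product, the dotted line is the lowest signal in the list and the dashed line the lowest reproducible signal. All 29 pooled values lie left of the dashed line at 80.03, with unc-60 at 76.1 nearest to it, and a gene without a dot had no region in that window.

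Thin filament genes had the highest group median. A promoter region was found at 8 of 10, with pooled signals from 24.0 to 76.1 and a median of 44.7. unc-60, which encodes ADF/cofilin, a protein that severs and depolymerizes actin filaments, had a region at chromosome V, 1474437 to 1474860, in intergenic sequence 437 bp upstream of the 5′ end. Its signal was 76.1 in the pooled list, and the overlapping regions had 38.7 in replicate 1 and 39.1 in replicate 2. The region ranked 642 of 25887, and its −log10 q was 2.41. Every reproducible peak had 2.62, the highest value in the pooled list, which 633 regions carried, 570 of them reproducible. A second region of signal 31.0 overlapped it 234 bp upstream, and the gene model F53E2.2 shares the 5′ end, so the region cannot be given to unc-60 alone.

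The unc-60 region was the 1 muscle gene region whose position relative to the threshold differed between the genome builds. In the older ce10 build the authors' reproducible list was longer, 858 peaks down to a signal of 68.9. It held a chromosome V region whose signal matched that of the unc-60 region to 0.000208%, at the same rank of 642, while the next nearest signal on that chromosome differed by 0.185%. The match was by signal and chromosome only, since coordinates were not converted between builds.

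lev-11, which encodes tropomyosin, had the next highest thin filament region, at chromosome I, 14625109 to 14625532, in a coding exon 113 bp downstream of 1 of its 11 annotated 5′ ends. Its signal was 57.1 pooled, 19.6 in replicate 1 and 35.9 in replicate 2. dim-1, an immunoglobulin domain protein needed for stable muscle structure, had a signal of 50.8 in an intron of its longer transcripts, 299 bp upstream of an internal 5′ end. Replicate 2 overlapped the dim-1 region with 31.0 and replicate 1 had no region there. Thus the pooled values of lev-11 and dim-1 were close, but the libraries behind them were unequal.

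Troponin genes were spread over the range. unc-27, which encodes troponin I of body wall muscle, had a pooled signal of 47.3 at 303 bp upstream, with 31.4 in replicate 1 and 15.03 in replicate 2. tnt-2, a troponin T gene, had 42.1 at 349 bp upstream, with 15.5 and 26.8, the reverse order of the libraries. Lower values were found at pat-10 (troponin C, 29.98), tni-1 (troponin I, 27.5) and mup-2 (troponin T, 24.0). The pat-10 region was overlapped in replicate 1 alone, with 26.2, and the tni-1 region in replicate 2 alone, with 29.5. unc-78, which encodes actin-interacting protein 1, and unc-87, a calponin-like protein, had no pooled promoter region and reached 14.1 and 13.7 in replicate 1, near the lowest signal of that list, 12.6.

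All 4 actin genes had a pooled promoter region, and the genes differed among themselves. act-1 had the second highest signal of the muscle genes, 67.7, at chromosome V, 11080107 to 11080530, 733 bp upstream, and a further overlapping region of 53.4 at 530 bp upstream. The libraries had 22.8 in replicate 1 and 44.1 in replicate 2, where the region had a −log10 q of 2.62 and ranked 551 of 27731. act-3 reached 33.0 in an intron, 341 bp upstream of an internal 5′ end, and act-4 reached 27.9, also intronic. act-2 had 24.5 at 618 bp upstream. The coding sequences of these actins are alike, but the summit windows of all 4 highest regions were 100% unique 31-mers, whereas a weaker act-4 region of 20.6 in a coding exon was 41.5% unique. In ce10 the nearest signal to act-1 in the reproducible list differed by 1.82%, so no region of equal signal was found there.

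Of the 3 myosin light chain genes, all had a pooled promoter region. mlc-2, a regulatory light chain gene, had 51.01 at 426 bp upstream, with 27.4 in replicate 1 and 19.5 in replicate 2. mlc-1, the neighbouring regulatory light chain gene on the opposite strand of chromosome X, had a separate region of 33.1 at 162 bp upstream, overlapped in replicate 1 alone with 17.8. mlc-3, the essential light chain gene, had the lowest pooled value of the 29, 22.3, close to the lowest signal of the list, 20.5. The windows of the regulatory light chain genes do not overlap, so their regions are separate by position, and the higher of their signals was seen in both libraries.

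Thick filament genes all had a pooled promoter region, 7 of 7, with signals from 24.5 to 47.2 and a median of 33.1. unc-89, the obscurin ortholog of M-lines, had 47.2 at 55 bp upstream, with 23.4 in replicate 1 and 27.6 in replicate 2. unc-15, which encodes paramyosin, had 44.6 in an annotated UTR, 52 bp downstream of the 5′ end. There replicate 1 had 14.5 and replicate 2 had 28.4, and an overlapping intronic region of replicate 1, 283 bp downstream, had 16.4. unc-22, which encodes the giant kinase twitchin, had 42.7 in an intron 354 bp downstream of a 5′ end, with 20.8 and 18.2. These 3 genes were seen in both libraries at similar pooled signals.

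The myosin heavy chain genes lay lower. unc-54, encoding the major heavy chain B, had 33.1 at 62 bp upstream and was overlapped in replicate 1 alone, with 18.8. myo-3, encoding heavy chain A of the centre of the filament, had 32.3 at 422 bp upstream, with 15.6 and 13.0. The unc-45 region, at a gene for a myosin chaperone, had 25.0 and was the 1 highest region that neither library overlapped. unc-98, a zinc finger protein of M-lines and dense bodies, had 24.5, and its summit was nearer to the 5′ end of F08C6.18.

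Attachment genes included 3 of the 7 genes that lacked a pooled promoter region. Of 8, 5 had a pooled promoter region, with signals from 23.7 to 57.0 and a median of 34.6. pat-4, integrin-linked kinase, had 57.0 at chromosome III, 94922 to 95345, 325 bp upstream, with 24.3 in replicate 1 and 28.3 in replicate 2. unc-112, the kindlin ortholog, had 35.4 with replicate 2 alone overlapping (21.1). pat-3, the beta integrin, had 34.6 at 771 bp upstream, overlapped by regions of 17.8 in replicate 1, whose own summit lay outside the window, and 27.1 in replicate 2. unc-52, which encodes perlecan, reached 29.9 and pat-6, the parvin ortholog, 23.7. unc-97, the PINCH ortholog, and pat-2, the alpha integrin, had no promoter region in any list, and deb-1, vinculin, had 13.5 and 14.5 in the single libraries and none in the pooled list.

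Regulatory genes were split. hlh-1, the MyoD ortholog, had 43.9 at chromosome II, 4518331 to 4518754, 31 bp upstream of its outermost 5′ end, with 16.2 in replicate 1 and 25.6 in replicate 2. egl-19, the L-type calcium channel, had 29.3, with 13.2 and 16.9, and its summit was nearer to the 5′ end of C48A7.16. hlh-8, the Twist ortholog, had 14.4 in replicate 2 alone, and unc-95, a LIM domain protein of the attachment sites, had no promoter region in any list. The 7 genes without a pooled promoter region were therefore hlh-8, unc-78, unc-97, deb-1, unc-87, unc-95 and pat-2, and each of them had a pooled region elsewhere inside the gene.

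Read against all genes with a pooled promoter region, the muscle genes held a middle position. Their median highest signal was 33.1, against 31.1 over the 8189 genes, and the 25th and 75th percentiles were 27.9 and 47.2, against 24.9 and 42.3. Of the 29, 18 lay above the median of all genes and 2, unc-60 and act-1, above their 90th percentile, 64.4. A promoter region whose q-value was 0.05 or lower belonged to 4 of 29 muscle genes (unc-60, act-1, lev-11 and pat-4), 13.8%, which is near the 14.8% of all genes with a promoter region. The lowest reproducible signal was a median of 2.42 times the muscle gene signal, and 1.05 times that of unc-60. In the pooled list the quartiles of the muscle genes thus lay above those of all genes, and no muscle gene lay beyond the reproducible limit. Whether a difference in the upper tail exceeds what 29 genes would show by sampling was not tested. The single libraries did not share the order of the medians. In replicate 1 the median was 17.56 for muscle genes, below the 18.04 of all genes with a promoter region there. In replicate 2 it was 21.11, above the 17.67 of all genes.

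**Figure D2:**
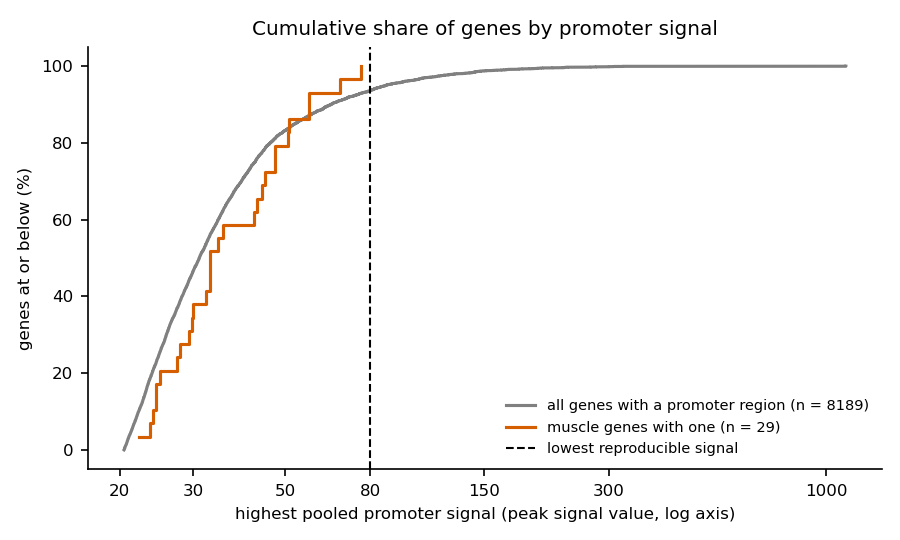
Cumulative share of genes, in percent, by the highest pooled promoter signal on a log axis, for the 29 muscle genes and the 8189 protein-coding genes with a promoter region; the dashed line marks the lowest reproducible signal, 80.03. The muscle gene curve lies right of the other through most of the range, with medians of 33.1 and 31.1, and ends at 76.1 before the dashed line, beyond which 6.37% of all these genes lie.

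The libraries were compared next at the same genes. Of the 29 highest pooled regions, 17 were overlapped by a region in both libraries, 8 in replicate 2 alone, 3 in replicate 1 alone and 1 in neither. Over all genes with a promoter region, 51.5% had their highest region overlapped in both, near the 58.6% of the muscle genes. Among the 21 muscle genes with a region in the window of both libraries, the log2 ratio of replicate 1 to replicate 2 averaged -0.21 ± 0.51 (SD over genes), and 15 were higher in replicate 2. Over the 4995 such genes in all, the mean was -0.02 ± 0.52.

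The largest differences between libraries, each taken between the highest summits in the window, were in both directions. unc-27 was higher in replicate 1 by a log2 ratio of 1.06, and act-1, pat-3 and lev-11 were higher in replicate 2, with ratios of -0.95, -0.91 and -0.84. unc-60 was almost equal, at -0.01. Across the 21 genes the Spearman correlation of the libraries was 0.383, and across all 4995 it was 0.513, as descriptions over genes that share each library. A region in both windows was not always the same region: for pat-3 the highest summit in the window lay 348 bp downstream of the 5′ end in replicate 1, with 14.5, and 794 bp upstream in replicate 2, with 27.1.

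**Figure D3:**
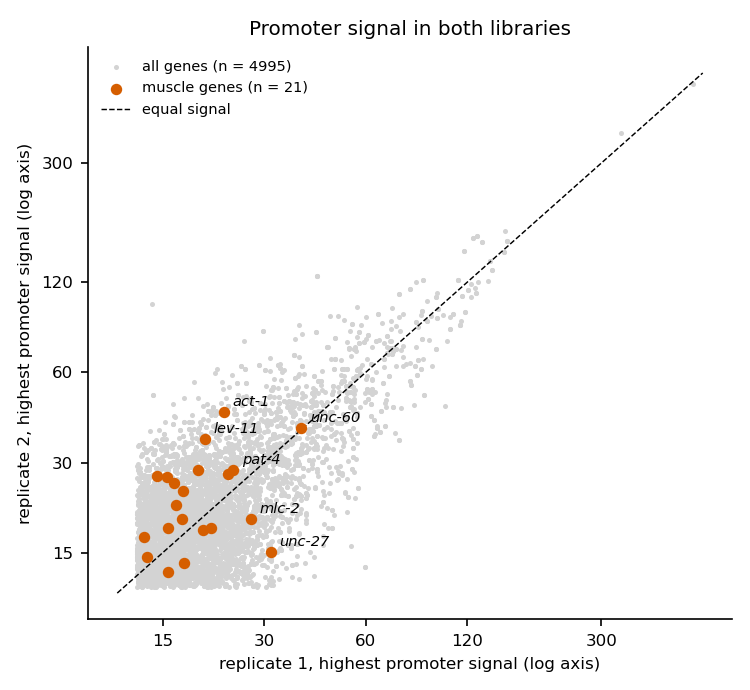
Highest promoter signal in replicate 1 (x) and replicate 2 (y), both on log axes, for all 4995 genes with a region in both libraries (grey) and the 21 muscle genes among them (orange); the dashed line marks equal signal. The unc-60 point lies on the line at 38.7 and 39.1, act-1 and lev-11 lie above it and unc-27 below it.

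The position of the regions was examined for what they share. Promoter windows of the muscle genes held 49 distinct pooled regions, and 14 genes had more than 1, up to 4 at unc-52. The highest region lay upstream of the nearest 5′ end of its gene in 23 of 29 genes and downstream in 6, at a median distance of 303 bp. The window reaches 1000 bp upstream but 500 bp downstream, which favours upstream summits, and the same count over all genes is not given here. For 27 of 29 no other protein-coding gene had a nearer 5′ end, the exceptions being egl-19 and unc-98. Counting only regions with no nearer 5′ end of another gene, 35.7% of all genes had a pooled promoter region, against 41.0% without that rule. Intergenic sequence held 55.1% of the 49 summits, against 42.3% of the 9700 pooled regions in any promoter window, and coding exons 12.2% against 23.4%. Introns held 24.5% against 25.9%. No tRNA, snoRNA, snRNA, rRNA or miRNA gene lay within 250 bp of any of the 29 highest summits, and the same count over all genes is not given here. All of the 29 summit windows were 100% unique. Full uniqueness was common at large, with 97.96% of the 49 windows and 87.04% of those of the 9700 regions.

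**Figure D4:**
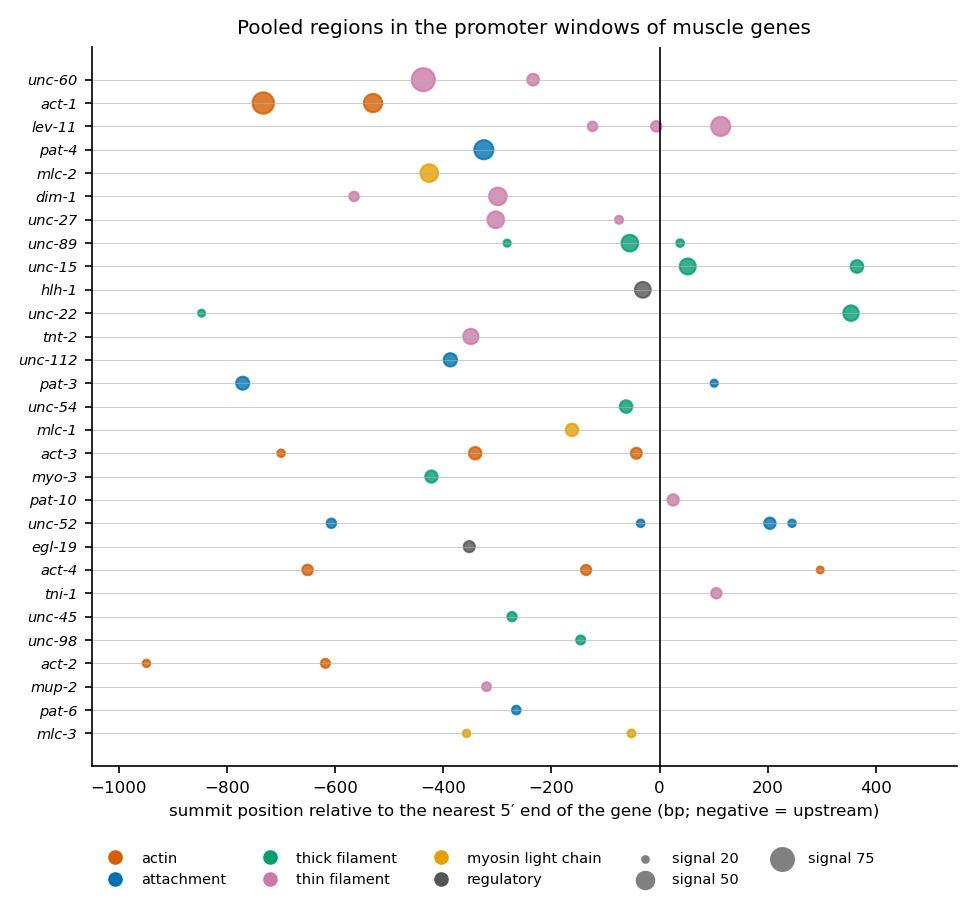
Summit positions of the 49 pooled regions in the promoter windows of the 29 muscle genes, in bp from the nearest annotated 5′ end of the gene (negative is upstream); each row is a gene in order of its highest signal, dot area grows with signal and colour gives the role of the product. The highest regions of unc-60, act-1, pat-4 and mlc-2 lie 325 to 733 bp upstream, whereas that of hlh-1 lies 31 bp upstream.

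Sequence within 100 bp of the summits was searched on both strands for 5 motifs. The homeodomain core was TAATTA, which is of the kind bound by LIM homeodomain proteins. A purine repeat, GAGAGA, and a TATA-like motif with the letters TATAAA were also searched. Of the E-boxes, the kind of site bound by MyoD proteins, one had the form CAGCTG and the other, searched in the same way in every window, had the form CACCTG. The purine repeat was in 20 of 49 muscle promoter windows, 40.8%, against 19.5% of the 9700 pooled promoter regions. At the highest region of each gene it was in 16 of 29, 55.2%, against 19.8% of the 8189 genes, and the 16 included unc-60, act-1, unc-15, unc-54 and myo-3. The homeodomain core was in 0 of 49, against 7.94% of all promoter regions. Several of the 49 windows came from the same gene and the genes were chosen with results known. Whether these shares differ was therefore not tested. Both E-boxes were also in 0 of 49, against 5.402% for the CAGCTG form and 5.92% for the other. TATAAA was in 2 of 49, 4.08%, against 16.1%. The median GC content was 47.3% in the muscle windows and 40.8% in all promoter regions, and its part in these shares was not tested. The motif shares are descriptions of these windows and locate no bound site.

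Pooled regions inside the genes numbered 115, more than the 49 at the promoters, and 20 regions were in both sets. Per 10 kb of sequence the order was reversed, with 5.82 summits in the promoter windows and 4.11 inside the genes. A pooled region had its summit inside 31 of 36 muscle genes, 86.1%, against 41.4% of all genes, and both libraries had one inside 21, against 27.2%. Muscle genes are long, with a median of 3925 bp against 2026 bp, and per 10 kb of gene they held 4.11 summits against 2.62. The 115 regions inside included 46 in unc-52, unc-89 and unc-22 together, which are 37.1, 55.2 and 38.3 kb long. unc-52 held 22, unc-89 13 and unc-22 11. The density therefore exceeded that of all genes at unc-52 and was close to it at unc-22 and unc-89.

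**Figure D5:**
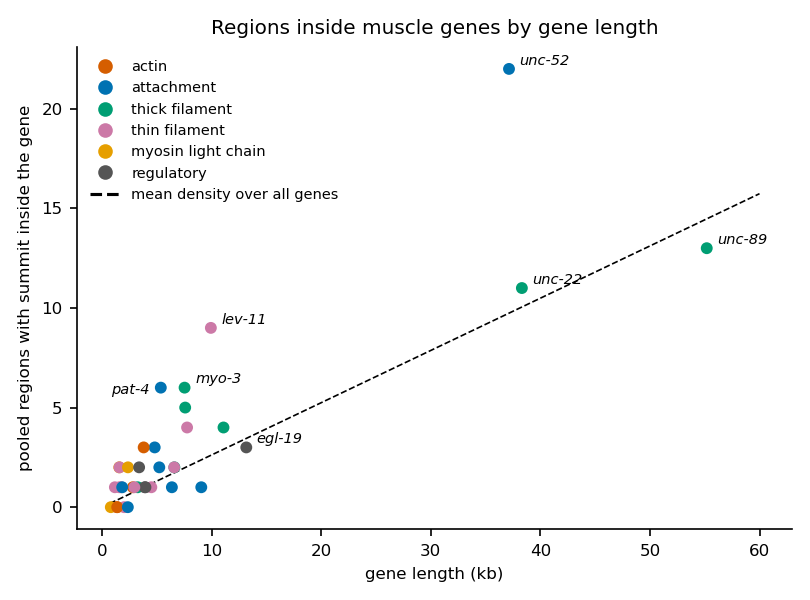
Number of pooled regions with a summit inside each of the 36 muscle genes against gene length in kb, coloured by the role of the product; the dashed line is the mean density over all protein-coding genes, 2.62 per 10 kb. unc-52 with 22, lev-11 with 9 and pat-4 with 6 lie above the line, and unc-89 with 13 lies just below it.

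Per kb, mlc-1 (1.275, from 2 regions), tni-1 (1.26, from 2) and pat-4 (1.12, from 6) had the highest density. The highest signal inside was 57.6 in a coding exon of unc-54, 2262 bp downstream of the 5′ end, so this gene had more signal in its body than at its promoter. For hlh-1 the pooled list had 47.6 in a coding exon against 43.9 at the promoter, but the libraries had opposite orders. Replicate 1 had 26.0 as the highest signal inside and 16.2 at the promoter, and replicate 2 had 15.9 inside and 25.6 at the promoter. unc-95 and pat-2, with no promoter region, reached 49.3 and 45.5 in coding exons. Coding exons held 54.8% of the summits inside muscle genes and introns 37.4%, compared with 40.6% and 51.3% for all summits inside genes, while coding sequence made up 42.6% of the length of the muscle genes and 38.3% of all genes. The median of the highest signal inside was 33.0 for muscle genes and 29.99 for all genes with one. For some muscle genes, lev-11 and act-3 among them, the highest region inside was also the highest promoter region.

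Further muscle genes lay between the 36 and all genes in the share with a pooled region, but not in every comparison. A list of 80 other genes of body wall, pharyngeal and non-striated muscle, of which 79 matched, had a pooled promoter region at 51 (64.6%, against 80.6% of the 36 and 41.0% of all genes). A pooled region lay inside 58 of them (73.4%, against 86.1% and 41.4%). Both libraries had a region in the promoter window of 48.1%, against 58.3% of the 36 and 25.0% of all genes. Inside the gene the order of the 2 lists was reversed, with both libraries at 67.1%, against 58.3% of the 36 and 27.2% of all genes. The other muscle genes were longer, with a median of 6293 bp, and had a mean of 2.89 annotated 5′ ends, against 2.14 for the 36 and 1.49 for all genes. Per 10 kb of promoter window they had 3.61 summits, nearer to the 3.17 of all genes than to the 5.82 of the 36, and per 10 kb of gene they had 3.19, against 2.62 and 4.11. Of the 33 with 1 annotated 5′ end, 51.5% had a pooled promoter region, against 85.7% of such genes among the 36 and 35.1% of all. Of the 46 with several ends, 73.9% had one, about equal to the 73.3% among the 36 and above the 56.4% of all. None of the 79 had a reproducible promoter peak, against 2.61% of all genes. The highest promoter signals were those of cap-1, an actin capping protein (76.5), jph-1, the junctophilin ortholog (75.5), and pha-4, the FoxA factor of the pharynx (71.0), all below 80.03. A reproducible peak lay inside 1 of the 79, 1.27%, against 0.791% of all genes. That gene was him-4, which encodes the extracellular matrix protein hemicentin, and the peak had a signal of 165. The median promoter signal of the list, 33.8, was far below the limit of 80.03, as was the 33.1 of the 36 genes.

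The nearest reproducible summit was far from most muscle genes. Its distance from a 5′ end had a median of 65757 bp, near that of all genes, 65411 bp. Only unc-15, at 4351 bp, and mlc-3, at 9883 bp, had one within 10000 bp.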

How the data were processed

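The authors deposited region lists in narrowPeak layout for each library and for both pooled, in builds ce10 and ce11, derived from alignments per the deposited notes. Every region carries the authors' signal value and a −log10 q-value from the deposited files, and the field for p-values was not filled in. The sources used here name no aligner, peak caller or read depth, so intervals that rest on depth were not computed. Of the pooled regions 99.8% were 424 bp wide.

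Summits in ce11 were placed on Ensembl release 115 protein-coding genes with Python 3.11.15, pandas 2.3.3 and numpy 2.4.6, and placement was checked on planted regions. A library region overlapped a pooled one at 1 bp or more. A summit window was called unique by the percentage of its 31-mers that occur once in the assembly. No set was tested, since 1 group has no contrast and the members and lists were chosen with earlier results of these data known. Values in each library were given for the 12 members of highest pooled signal among those in all 3 lists, and for the leading members of each role. The remaining members were named to account for all. Of the other muscle genes, those with a reproducible promoter peak and the 3 highest were to be named, and him-4 was added after its value was seen. Alternatives changed the window, the 5′ ends, assignment, overlap, uniqueness, list threshold and library.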

Additional observations from a re-analysis of the deposited data

How the results depend on the processing

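The number of muscle genes with a promoter region was 21 to 33 over all alternatives, against 25.1% to 52.1% of all genes. With 1 library left out the number was 26 to 27, against 36.8% to 41.9% of all genes. With regions at or above the list median alone, which admits fewer regions by construction, 21 had a promoter region, 11 had one in both libraries and 19 had one inside the gene, against 25.1%, 13.5% and 24.5% of all genes. The median highest signal was then 42.7. In single libraries, whose scale differs from that of the pooled list, it was 17.6 to 21.1. There 23 to 30 muscle genes had a region inside, against 38.5% to 44.0% of all genes. The number with a reproducible promoter peak was 0 under every window and assignment rule tried. It was 1, unc-60, when as many of the highest pooled regions were taken as the ce10 list holds (3.57% of all genes). With 1 library left out it was 0 to 1, against 2.55% and 2.49% of all genes, and the 1 was act-1 in replicate 2. Those counts take the 570 highest regions of a single library, which are not reproducible peaks. The mean log2 ratio of the libraries was -0.14 to -0.27. Within 50 bp of the summit GAGAGA was in 26.5% of muscle windows, against 10.8% of all promoter regions, and the narrower window holds fewer matches by construction. No paired analysis was possible because there is 1 group. What depth limits is unknown, as the lists carry no read counts.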
